A study of Mus musculus with 6 samples.

Results

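Microglia, the resident macrophages of the brain, carry a set of receptors for extracellular nucleotides and an enzyme that breaks these nucleotides down. Described here are 7 genes of that set out of 51826 in the deposited table: the nucleotide receptors P2ry12, P2ry13 and P2ry6, the ATP-gated channels P2rx4 and P2rx7, the lysophosphatidylserine receptor gene Gpr34 and the ectonucleotidase gene Entpd1. They were chosen as a family because P2ry12 was high in knockout libraries in earlier results of these data, so the difference in P2ry12 between genotypes is given as a description, with no test. All 7 genes were measured, and all 7 passed the filter on low counts that left 18956 genes for testing. Messenger RNA was sequenced in 3 libraries of mice whose glutamatergic neurons lack Adam17 (KO) and 3 of wild-type mice (WT). Replicates 1 and 2 of each genotype are male and replicate F1 is female, and values of a genotype are given below in the order 1, 2, F1. Neither strain, age, treatment nor the Cre line or promoter behind the knockout is given in the labels, and the labels do not say whether each library is a separate animal. P-values therefore measure only the spread between these libraries, which may be technical. The tissue is labelled as paraventricular nucleus of the hypothalamus, and the RNA came from all of its cells, while the knockout is labelled as one of glutamatergic neurons only.

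Cells that are active or damaged release ATP, which enzymes on cell surfaces break down to ADP, AMP and adenosine. P2Y12 and P2Y13 are Gi-coupled receptors for ADP, and P2Y12 steers the processes of microglia toward the source. P2Y6 is a Gq-coupled receptor for UDP that is linked to phagocytosis. P2X4 and P2X7 are cation channels opened by ATP, and P2X7, which needs high ATP, feeds the NLRP3 inflammasome. GPR34 belongs to the same branch of the receptor tree as P2Y12 but answers to lysophosphatidylserine. CD39, the product of Entpd1, converts ATP and ADP to AMP. In the healthy brain, P2ry12 and Gpr34 are widely used as marks of microglia.

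The depth of the libraries ran between 35114426 and 54421330 counts. The share of counts on mitochondrial genes was 20.63%, 9.2% and 7.8% in KO libraries, against 7.26%, 7.22% and 7.64% in WT libraries. Unless said otherwise, a level is in CPM, a count relative to the library total after TMM scaling, a correction for differences in RNA makeup. Adam17 had 15.4, 14.6 and 13.9 CPM in KO libraries, against 17.1, 17.2 and 15.6 CPM in WT libraries, so all KO libraries lay below all WT libraries (log2 fold change −0.19, SE 0.11, edgeR adjusted p = 0.747). Defining genes of the labelled nucleus were low: Sim1 lay between 0.63 and 2.51 CPM in the 6 libraries, and the 6 genes of the nucleus list (Sim1, Otp, Avp, Oxt, Crh and Trh) summed to 42.3, 36.6 and 53.0 CPM in KO libraries, against 84.9, 29.8 and 106.7 CPM in WT libraries. The 8 genes that mark cortex and hippocampus summed to 658.7, 540 and 497.1 CPM in KO libraries, against 504.2, 530.4 and 333.3 CPM in WT libraries. KO replicate 1, with its high mitochondrial share, and WT replicate F1, with its low cortex sum, stood apart from the rest, and P2ry12 is given below with and without them.

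P2ry12 and P2ry13 are neighbours on the minus strand of chromosome 3, with 5390 bases between them. P2ry12 (ENSMUSG00000036353) lies at 59216272 to 59262871 and P2ry13 (ENSMUSG00000036362) at 59207892 to 59210882 (GRCm38). The 250 bases before each start, from RefSeq on GRCm38.p6, are shown because these adjacent genes encode receptors for the same ligand and their levels are set side by side below. Capitals mark GAGGAA, a form of the site read by PU.1, the master transcription factor of macrophages.

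P2ry12 promoter, minus strand, chr3:59262986-59263235: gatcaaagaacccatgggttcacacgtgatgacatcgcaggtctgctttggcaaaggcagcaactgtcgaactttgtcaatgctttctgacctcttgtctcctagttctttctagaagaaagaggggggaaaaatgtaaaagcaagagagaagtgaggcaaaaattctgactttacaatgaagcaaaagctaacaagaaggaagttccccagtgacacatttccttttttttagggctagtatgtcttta
P2ry13 promoter, minus strand, chr3:59210883-59211132: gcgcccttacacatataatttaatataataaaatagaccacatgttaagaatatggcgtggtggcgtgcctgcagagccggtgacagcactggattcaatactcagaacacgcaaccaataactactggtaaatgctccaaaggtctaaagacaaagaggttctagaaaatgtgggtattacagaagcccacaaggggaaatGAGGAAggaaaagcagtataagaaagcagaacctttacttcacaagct

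GAGGAA, searched on both strands (TTCCTC on the other), was absent from the P2ry12 window and present once in that of P2ry13, 48 bases before the start. RefSeq windows were found for 5 of the 7 genes, 7 windows in all, and 2 of the 7 held the motif, the P2ry13 window and a second Entpd1 window. Across all mouse RefSeq windows of this length, 23.3% of 32841 held it. A match is only a match of letters, and other forms of the site were not searched.

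P2ry12 was the most abundant of the 7 genes per length. In deposited TPM it averaged 33.5 ± 8.91 over the 6 libraries (SD, n = 6) and lay above the next gene in 6 of 6. P2rx4 followed with 12.96 ± 1.79 TPM, above P2ry13 in 5 of 6 libraries. P2ry13 averaged 10.7 ± 2.08 TPM and Entpd1 10.04 ± 2.29 TPM, with P2ry13 ahead in 4 of 6, so this pair did not differ beyond their spread. Gpr34 (7.22 ± 0.961 TPM) lay below Entpd1 in 6 of 6 libraries. P2rx7 averaged 5.02 ± 1.21 TPM, below Gpr34 in 5 of 6, and P2ry6 was lowest in all 6 with 3.49 ± 0.971 TPM.

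P2ry12 had 34.0, 27.9 and 22.7 CPM in KO libraries, against 16.9, 21.7 and 9.63 CPM in WT libraries. The lowest KO library, the female, stood just above the highest WT library, a male, and within each genotype the female was lowest. The means were 28.2 ± 5.65 CPM in KO and 16.1 ± 6.09 CPM in WT libraries (SD, n = 3 each), and the fitted log2 fold change was 0.86 (SE 0.18). Without KO replicate 1 and WT replicate F1 it was 0.39, in a fit with no sex term whose only female library is KO. On log2(TPM + 1) it was 0.48, where the median of all genes was −0.24. P2ry12 had 33.2, 45.6 and 37.6 deposited TPM in KO libraries, against 30.2, 35.7 and 18.75 TPM in WT libraries, with an overlap. On TPM without mitochondrially encoded genes its genotypes did not overlap. In a bulk sample, fewer cells of a type and less RNA per cell cannot be told apart. Med12l, a gene of the Mediator family on the other strand, overlaps P2ry12 and shares 9 exonic bases with it, and the strand setting of the counting is not given. Med12l had 58.8, 42.8 and 49.8 CPM in KO libraries, against 51.4, 51.8 and 58.6 CPM in WT libraries. Whether its reads entered the P2ry12 count was not tested.

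P2ry13, the neighbouring ADP receptor gene, had 14.5, 16.3 and 9.51 CPM in KO libraries, against 12.2, 13.3 and 10.6 CPM in WT libraries. The genotypes overlapped, with the KO female below every WT library. The log2 fold change was 0.13 (SE 0.14, edgeR adjusted p = 0.833), with values of 0.04 without KO replicate 2, 0.05 without WT replicate 1 and 0.27 without either female library. The count of P2ry12 divided by that of P2ry13, a ratio that library scaling cannot move, was 2.34, 1.71 and 2.39 in KO libraries, against 1.39, 1.63 and 0.91 in WT libraries. All 3 KO libraries lay above all 3 WT libraries on that ratio, narrowly so for replicate 2 (1.71 against 1.63). P2ry12 was chosen for its level in KO, so this is a description and not a test. WT replicate F1 was the only library with fewer P2ry12 than P2ry13 counts.

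P2ry6 (ENSMUSG00000048779, chromosome 7, 100937630 to 100974649, minus strand), the UDP receptor gene, was the scarcest, with between 73 and 229 counts per library. It had 2.54, 3.96 and 2.70 CPM in KO libraries, against 2.70, 2.92 and 3.89 CPM in WT libraries. The ranges were nearly the same (log2 fold change −0.03, SE 0.26, edgeR adjusted p = 0.978).

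P2rx4 (ENSMUSG00000029470, chromosome 5, 122707544 to 122729738) and P2rx7 (ENSMUSG00000029468, chromosome 5, 122643911 to 122691432) are also neighbours, on the plus strand with 16112 bases between them. P2rx4 had 11.95, 11 and 11.89 CPM in KO libraries, against 9.79, 10.4 and 9.49 CPM in WT libraries. All KO libraries lay above all WT libraries, by a narrow margin, and the difference did not pass the test (log2 fold change 0.23, SE 0.12, edgeR adjusted p = 0.744). P2rx7 had 9.69, 8.23 and 7.03 CPM in KO libraries, against 6.47, 9.19 and 7.85 CPM in WT libraries. Its genotypes overlapped, with a WT library lowest and a KO library highest (log2 fold change 0.08, SE 0.19, edgeR adjusted p = 0.927).

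Gpr34 (ENSMUSG00000040229, chromosome X, 13632089 to 13640858, plus strand) had 7.26, 6.59 and 5.74 CPM in KO libraries, against 6.56, 6.08 and 6.61 CPM in WT libraries. The WT libraries lay within the range of the KO libraries (log2 fold change 0.02, SE 0.15, edgeR adjusted p = 0.979). Cask, a scaffold protein gene of the synapse, overlaps Gpr34 on the other strand with no exonic base in common (log2 fold change 0.06).

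Entpd1 (ENSMUSG00000048120, chromosome 19, 40612366 to 40741602, plus strand), the gene of CD39, had 19.0, 17.4 and 17.3 CPM in KO libraries, against 14.5, 13.6 and 13.8 CPM in WT libraries. The groups were tight and apart, 17.9 ± 0.953 CPM in KO and 13.97 ± 0.486 CPM in WT libraries (SD, n = 3 each). The log2 fold change was 0.36 (SE 0.11), with an unadjusted p = 0.0162 and an edgeR adjusted p = 0.735, so Entpd1 did not pass the test. On deposited TPM the direction turned: Entpd1 had 7.55, 9.62 and 11.96 TPM in KO libraries, against 13.6, 8.45 and 9.04 TPM in WT libraries. Its log2 fold change on log2(TPM + 1) was −0.08, where the median of all genes was −0.24. On TPM without mitochondrially encoded genes it had 12.3, 11.97 and 14.4 in KO libraries, against 16.2, 10.1 and 10.9 in WT libraries.

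**Figure D1:**
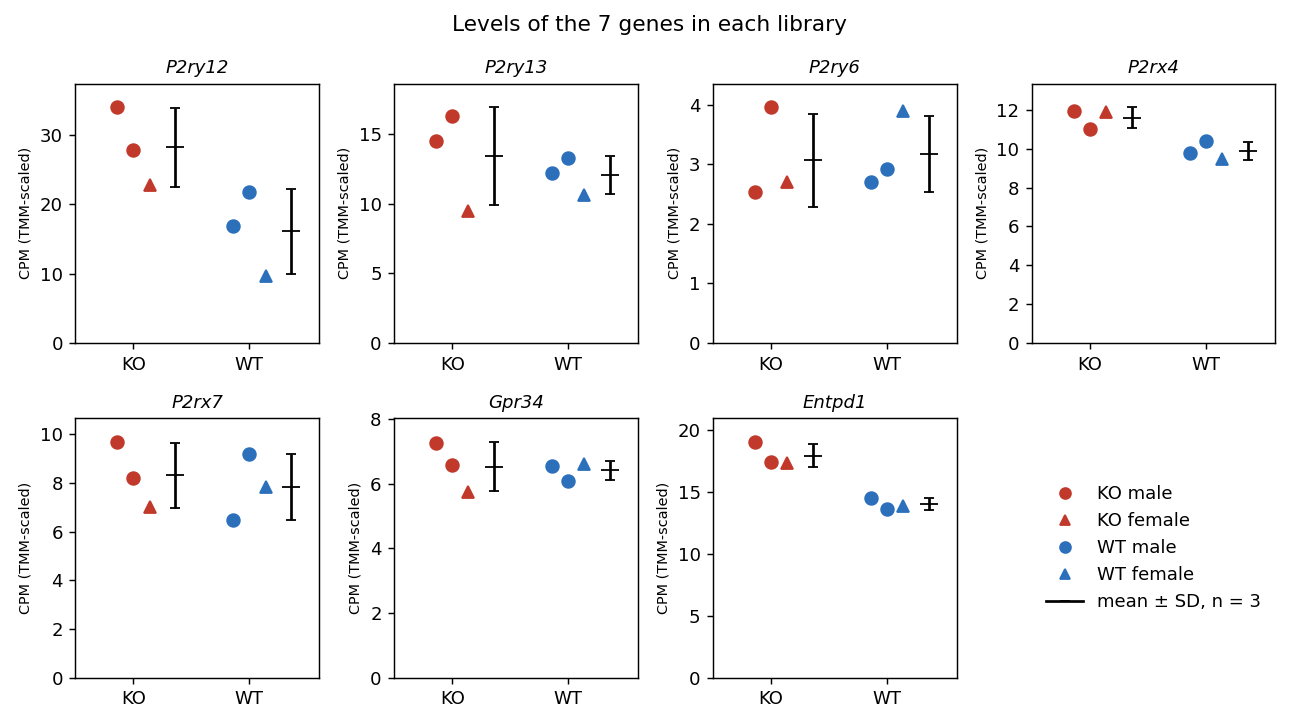
Level of each of the 7 genes in each library, in CPM with TMM scaling (vertical axes, each from 0), KO left and WT right; circles are male and triangles female libraries, and bars show mean ± SD (n = 3 libraries). P2ry12, P2rx4 and Entpd1 do not overlap between genotypes, and the means of P2ry12 are 28.2 CPM in KO and 16.1 CPM in WT libraries.

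Leaving out P2ry12, 0 of the other 6 genes passed an edgeR adjusted p of 0.05, against 0.00528% of all 18956 genes tested, and DESeq2 also called 0 of them. At an unadjusted p under 0.05 the count was 1 of 6, Entpd1, against 6.38% of all genes, 3.85% higher and 2.53% lower in KO. That count was 0 without WT replicate 1, without WT replicate 2, with library totals in place of TMM scaling and on log2 TPM. KO and WT libraries did not overlap for 2 of these 6, P2rx4 and Entpd1, both higher in KO, against 13.9% of all genes, 6.61% higher and 7.32% lower in KO; P2ry12, chosen for its level in KO, is left out of that count. On deposited TPM 1 of the 6 did not overlap, Gpr34, against 21.9% of all genes, and on TPM without mitochondrially encoded genes 1 of the 6, P2rx4, against 16.9%. Gpr34 had 5.57, 7.29 and 6.79 deposited TPM in KO libraries, against 8.03, 7.39 and 8.23 TPM in WT libraries. Of the 6 fold changes, 5 lay above 0, against 49.4% of all genes. With library totals in place of TMM scaling, the median of all genes moved to −0.17. Leaving out P2ry12, only P2rx4 and Entpd1 then lay above 0, and only P2ry6 (−0.181) lay below that median. On that scale P2rx4 had a log2 fold change of 0.06, with overlapping genotypes, and Entpd1 one of 0.19, without overlap.

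To read the family against microglial RNA as a whole, the 7 genes were set beside 16 other microglia markers, among them Cx3cr1, Csf1r, Tmem119, Aif1 and the C1q genes. All 16 were tested and 0 passed (6 fold changes above 0, 10 below, median −0.09, against a median of 0.00 over all genes). They summed to 407.5, 538.8 and 499.2 CPM in KO libraries, against 532, 497.5 and 486.4 CPM in WT libraries. The KO library with the most P2ry12 had the lowest sum. Csf1r, the receptor microglia need to survive, had a log2 fold change of 0.05, Cx3cr1, the fractalkine receptor, −0.30, and Tmem119, a microglial membrane protein, −0.19.

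Relative to the mean log2 CPM of these 16 markers, P2ry12 stood at 1.12, 0.40 and 0.18 in KO libraries, against −0.31, 0.18 and −0.99 in WT libraries. KO replicate F1 and WT replicate 2 were equal to 2 decimals. The means were 0.57 ± 0.49 in KO and −0.37 ± 0.58 in WT libraries (SD, n = 3 each), a difference of 0.94, which was 0.36 without KO replicate 1 and WT replicate F1. Entpd1 stood at 0.29, −0.28 and −0.21 in KO libraries, against −0.53, −0.50 and −0.47 in WT libraries, again without overlap. Leaving out P2ry12, Entpd1 was the 1 of 6 genes without overlap on this scale, against 9.15% of all genes, 4.75% higher in KO. The other 5 overlapped, with differences between 0.02 for P2ry6 and 0.31 for P2rx4.

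**Figure D2:**
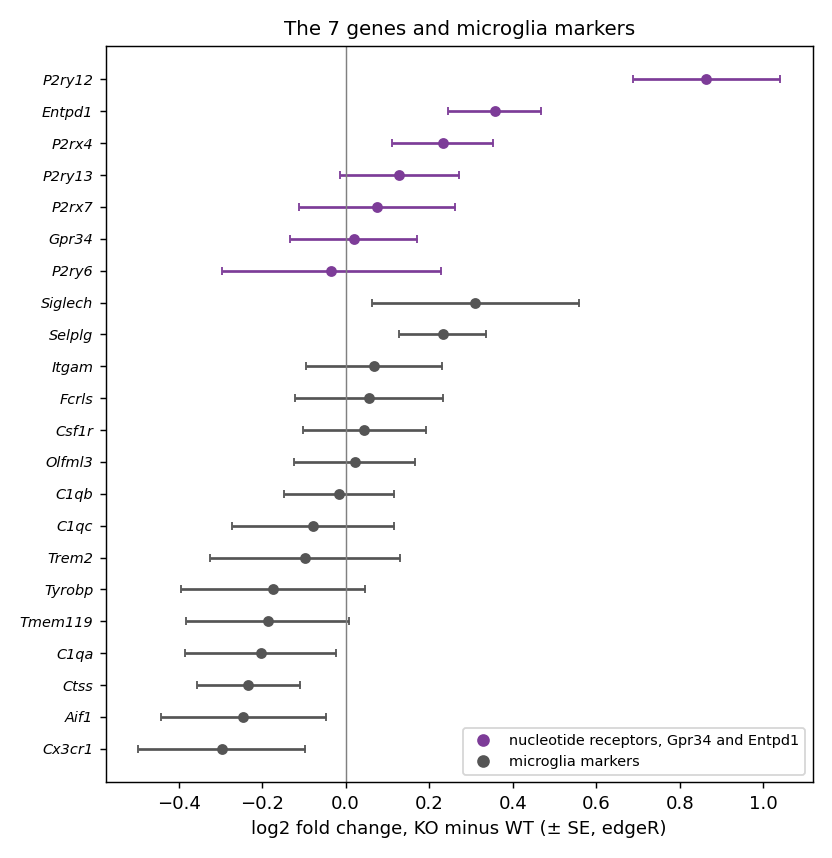
Log2 fold change KO minus WT with its standard error for each of the 7 genes and for microglia markers, all of the list but 1. P2ry12 (0.86) is above all the others shown, while the whole list of markers has a median of −0.09.

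Summed markers of neurons, and in part those of cortex and hippocampus, followed the order of P2ry12. The 5 neuron markers summed to 7213, 5903 and 5541 CPM in KO libraries, against 5198, 5524 and 4490 CPM in WT libraries. Ordered by this sum, the 6 libraries stand in the same order as by P2ry12, narrowly so for KO replicate F1 above WT replicate 2. On Snap25 alone KO replicate F1 (2743 CPM) lay below WT replicate 2 (2787 CPM). Other lists were summed as well, and the order rests on the P2ry12 levels that prompted the choice. It is therefore a description and not a test. Rbfox3 (log2 fold change 0.34), Snap25 (0.39) and Syt1 (0.30) lay above 0, while Tubb3 had −0.18, lowest in KO replicate 1, and Stmn2 0.00, and 0 of the 5 passed the adjusted edgeR test. Of the cortex and hippocampus markers, 8 of 8 had fold changes above 0 (median 0.39), against 49.4% of all genes. An unadjusted edgeR p under 0.05, higher in KO, held for 4 of these 8 and 3 of the 5 neuron markers, against 3.85% of all genes. Of the 8, 0 passed the adjusted edgeR test. Their sums, given above, overlapped, with KO replicate F1 below WT replicates 1 and 2. The part of these markers in the P2ry12 result was not tested. Platelets also carry P2Y12. The 7 platelet markers summed to 10.4, 11.8 and 12.99 CPM in KO libraries, against 14.3, 11.97 and 9.27 CPM in WT libraries. Most of that sum was Gp1bb, with 7.61, 9.72 and 9.80 CPM in KO libraries, against 9.04, 8.83 and 5.88 CPM in WT libraries. Of the 5 platelet markers tested, 2 had fold changes above 0 and 3 below. Among the latter, Itga2b (−0.58) lay below WT in all KO libraries. The platelet gene Ppbp lay between 0.0894 and 0.245 CPM in KO and between 0 and 1.55 CPM in WT libraries. Border macrophage markers summed to between 13.2 and 19.1 CPM in KO and between 11.9 and 19.4 CPM in WT libraries.

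**Figure D3:**
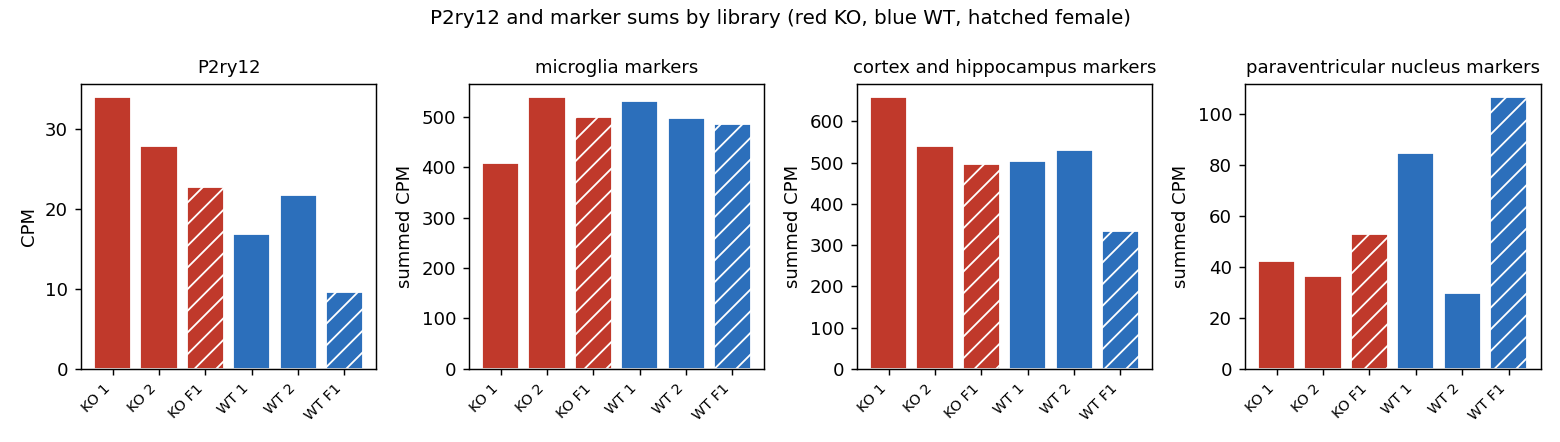
P2ry12 in CPM and the summed CPM of microglia, cortex and hippocampus, and paraventricular nucleus markers, 1 bar a library from 0, red KO and blue WT, female hatched. KO replicate 1 is highest on P2ry12 (34.0 CPM) and on cortex and hippocampus markers (658.7 CPM) and lowest on microglia markers (407.5 CPM).

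By the root mean square difference of centred log2 CPM over the 6 libraries, the profile nearest to P2ry12 among 15454 genes was that of Egr3, an activity-regulated transcription factor of neurons (distance 0.131). Egr3 had 109, 103 and 70.4 CPM in KO libraries, against 67.6, 81.3 and 32.2 CPM in WT libraries. The next were Gm3696 (0.137), the transcription factor gene Sp8 (0.140), the neuromedin B receptor gene Nmbr (0.160) and Sumo3 (0.171). P2ry12's own profile departs from a flat one by 0.579. The genes named were picked as the nearest by this distance, so all other genes, the family included, are farther off by that choice. The distance also rests on the P2ry12 levels that prompted the choice of the family, so it is a description and not a test. Of the family, Entpd1 lay at 0.452, with 1372 genes nearer, P2ry13 at 0.473, with 1914 nearer, and P2ry6 at 0.727, with 12634 nearer. Among the markers Selplg was nearest (0.425) and Cx3cr1 farthest (0.795). All markers but Selplg and Itgam (0.576), and P2ry6 of the family, were farther from P2ry12 than a flat profile is.

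Sex was a contrast the choice of genes did not use. P2ry12 had 22.7 and 9.63 CPM in the KO and WT females, against 34.0 and 27.9 CPM in KO and 16.9 and 21.7 CPM in WT males (female minus male log2 fold change −0.71, SE 0.19, unadjusted p = 0.00834, edgeR adjusted p = 0.941). P2ry13 had 9.51 and 10.6 CPM in the KO and WT females, below all 4 males, which lay between 12.2 and 16.3 CPM. It was the 1 gene of the 7 without overlap between the sexes, against 12.9% of all genes (log2 fold change −0.48, SE 0.16, unadjusted p = 0.0195, edgeR adjusted p = 0.941). Of the 7 genes 0 passed the adjusted test, against 0.0422% of all genes, and 2 had an unadjusted p under 0.05, against 4.58%. Without WT replicate F1 the P2ry12 difference was −0.44, and without KO replicate F1 the P2ry13 difference was −0.27, neither with an unadjusted p under 0.05 in edgeR. For the interaction of genotype and sex, 0 of 7 passed, against 0.0739%, and 0 had an unadjusted p under 0.05, against 7.42%, in a fit with 1 female library a genotype.

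Around the family, 9 lists of pathway genes held 57 further genes, 51 of them tested. edgeR called 0, and at an unadjusted p under 0.05 there was 1 higher and 1 lower; 25 fold changes lay above 0 and 26 below, with a median of −0.02. Genotypes did not overlap for 7 of the 51, 2 higher and 5 lower in KO, against 13.9% of all genes. The higher gene was Rac1, a GTPase that drives protrusion of cell processes and is used by all cells. It had 524, 379 and 354 CPM in KO libraries, against 340, 141 and 140 CPM in WT libraries (log2 fold change 1.05, SE 0.34, edgeR unadjusted p = 0.0222, adjusted p = 0.735). On deposited TPM Rac1 overlapped, with 185.6, 194.2 and 195.4 TPM in KO libraries, against 192.6, 80.15 and 105.2 TPM in WT libraries. The lower gene was Pnp, which cleaves inosine (log2 fold change −0.28, unadjusted p = 0.0477).

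The 5 further P2Y and P2X genes named here overlapped between genotypes. P2ry1, an ADP receptor gene, had a log2 fold change of −0.32, P2ry2, a receptor gene for UTP and ATP, 0.54 at levels below 0.85 CPM, P2ry14, a UDP-glucose receptor gene, 0.18, P2rx6 −0.21 and P2rx3 0.27. Genes beside the family gave −0.36 for Igsf10 (near P2ry12), 0.19 for Camkk2 (near P2rx4), 0.04 for Ift81 (near P2rx7), 0.02 for Arhgef17 (near P2ry6) and −0.06 for Tctn3 (near Entpd1).

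Further down the chain of ATP breakdown, Nt5e, whose product CD73 makes adenosine from AMP, had 8.27, 8.31 and 10.1 CPM in KO libraries, against 7.31, 7.96 and 6.61 CPM in WT libraries. Like Entpd1, Nt5e lay above WT in all KO libraries by CPM, without passing the test. On deposited TPM Nt5e overlapped, with 3.22, 4.53 and 6.29 TPM in KO libraries, against 4.54, 5.36 and 4.15 TPM in WT libraries. Of the other ectonucleotidase genes, Entpd2 (log2 fold change −0.39) and Alpl (−0.28) lay below WT in all KO libraries. Entpd3 (−0.16), Enpp1 (−0.09) and Enpp3 (0.50) overlapped between genotypes. Of the 4 adenosine receptor genes, Adora2b, a low-affinity receptor, lay below WT in all KO libraries (−0.40), Adora2a had 0.37 and Adora1 0.17. The inflammasome genes downstream of P2X7 had a median of −0.09, with 6 of 9 below 0. Kcnk13, the potassium channel that keeps microglial processes moving, had −0.15.

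**Figure D4:**
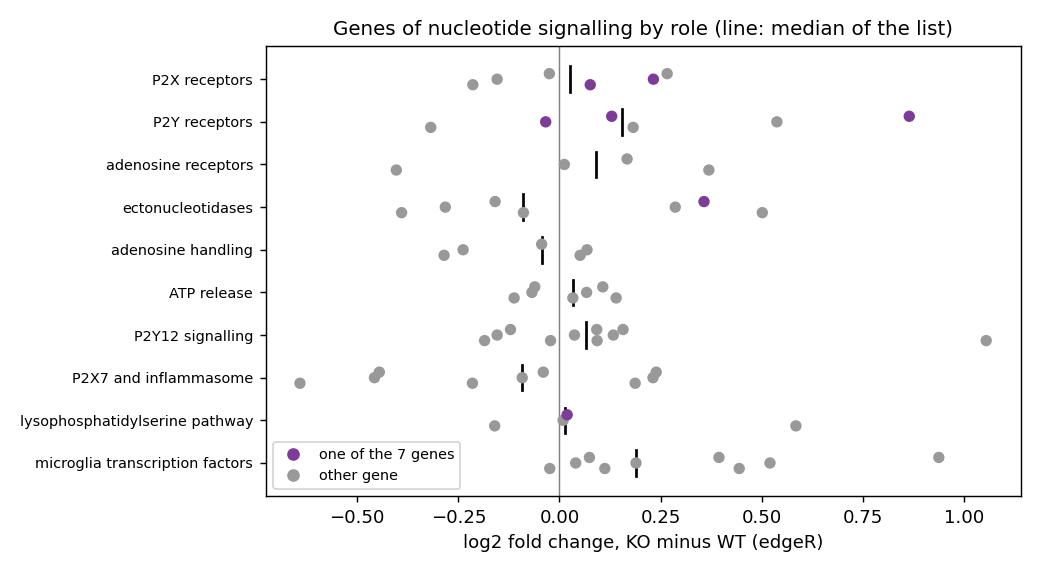
Log2 fold change KO minus WT of each tested gene of the gene lists, grouped by list, with the 7 genes in purple. Leaving out P2ry12 (0.86), which is not tested here, 0 genes pass the adjusted threshold, and Rac1 lies at 1.05.

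Deposited TPM and CPM ordered the libraries differently for several of the 7 genes: KO replicate 1 was highest by CPM and lowest by TPM for P2rx4, P2rx7, Gpr34 and Entpd1. On TPM without mitochondrially encoded genes KO replicate 1, with its mitochondrial share of 20.63%, stayed lowest for P2rx7. It was not lowest there for P2rx4, Gpr34 or Entpd1. The cause was not tested. Dividing count by FPKM and library total gives the transcript length the authors' values used. For P2rx7 this length was 4783, 4410 and 2615 bases in KO libraries, against 3504, 4925 and 3755 bases in WT libraries. The highest was 1.88 times the lowest. Among 12591 genes with at least 100 counts in all libraries the median of this ratio was 1.058, and 0.858% had a larger one. The annotation (GENCODE M21) lists 8 P2rx7 transcripts, 5 of them protein-coding, the longest of 4936 bases. For Entpd1 the length was 4089, 4329 and 3722 bases in KO libraries, against 2834, 4235 and 4124 bases in WT libraries, a ratio of 1.52. P2ry12 spanned 1463 to 1663 bases in KO and 1383 to 1603 bases in WT libraries, and P2ry13, with 1 transcript of 2528 bases, spanned 2801 to 2878, so the scale is approximate.

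The P2rx7 windows from RefSeq, both on the plus strand of GRCm38.p6, show that its transcripts begin at separate places; neither holds GAGGAA.

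P2rx7 start 1, chr5:122643677-122643926: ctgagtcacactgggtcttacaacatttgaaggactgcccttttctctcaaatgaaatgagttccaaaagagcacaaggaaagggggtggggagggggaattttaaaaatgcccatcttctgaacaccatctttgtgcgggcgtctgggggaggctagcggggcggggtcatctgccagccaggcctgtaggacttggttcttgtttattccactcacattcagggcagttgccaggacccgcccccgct
P2rx7 start 2, chr5:122650133-122650382: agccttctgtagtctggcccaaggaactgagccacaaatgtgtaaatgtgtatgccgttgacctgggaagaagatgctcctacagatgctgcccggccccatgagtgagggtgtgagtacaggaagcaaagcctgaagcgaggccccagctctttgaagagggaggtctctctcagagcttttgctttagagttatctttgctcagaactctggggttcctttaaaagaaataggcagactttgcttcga

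**Figure D5:**
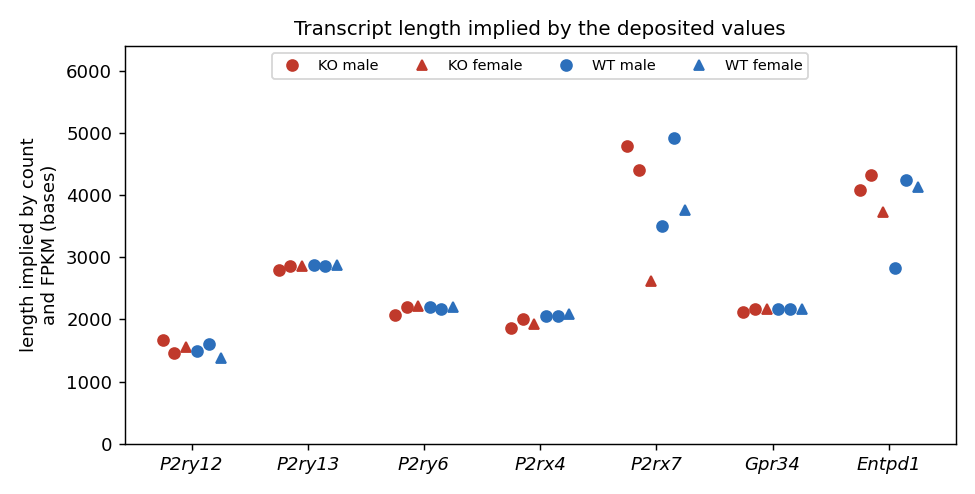
Transcript length in bases implied by count, FPKM and library total for each of the 7 genes in each library, KO left of WT, circles male and triangles female. P2rx7 runs between 2615 and 4925 bases and Entpd1 between 2834 and 4329, while Gpr34 stays between 2119 and 2174.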

How the data were processed

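The authors deposited, per the file headers, whole-number counts, TPM and FPKM for 51826 genes in 6 libraries. The tools named by the submitters' processing notes are bedtools 2.26.0, Trimmomatic 0.36 and FastQC 0.11.2; no source used here names an aligner, counter, strand setting or genome build. Identifiers matched GENCODE M21 (GRCm38) for 99.6% of genes, and all 7 genes had identical coordinates there. Counts were tested with edgeR 4.0.16 (R 4.3.3): filterByExpr by genotype, TMM, robust quasi-likelihood with sex and genotype as terms, Benjamini-Hochberg adjustment over all 18956 genes, threshold 0.05. A floor of 3 counts equals 0.0509 to 0.104 CPM after TMM scaling and covers counting error only. The deposited TPM served for levels between genes, and with the deposited FPKM for implied lengths. The 7 genes, the gene and marker lists and the tests were chosen with earlier results of these data known. By a rule, the text names the 7 genes, Adam17 and other comparison genes, up to 3 genes a list by p, overlapping or nearest genes and the 5 nearest profiles; genes beyond these, such as Ppbp, Cd68 and Kcnk13, were picked with their values in view. Alternatives used other scalings, filters, DESeq2 1.42.0, limma 3.58.1 on log2(TPM + 1) and log2(TPM + 0.1), and left out libraries; some came after seeing the data. Values of some genes that the rule or the lists picked are not reported here.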

Additional observations from a re-analysis of the deposited data

How the results depend on the processing

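Against 1 gene past the threshold between KO and WT, there were 4 with no filter, 75 with DESeq2, 4 on log2(TPM + 1), 5 on log2(TPM + 0.1), 3 with no sex term, 18 in males, 27 without both KO replicate 1 and WT replicate F1, and 0 to 20 leaving out 1 library (0 without KO replicate 2, WT replicate 1 or WT replicate 2; 7 without KO replicate 1, 15 without KO replicate F1, 20 without WT replicate F1). With the replicate block the count was 0; same-numbered libraries correlated at −0.04, 0.02 and 0.02, so the numbers were not taken as pairs. None of the 6 genes other than P2ry12 was called in any of these fits. For sex, against 8 genes, there were 13 with no filter, 52 with DESeq2 and 6 to 25 leaving out 1 library. Leaving out P2ry12, 2 of the other 6 genes were without overlap, against 13.9% of all genes. That count was 1 on deposited TPM (21.9% of all genes) and 1 on TPM without mitochondrially encoded genes (16.9%). It was 2 to 3 leaving out 1 library, where the share of all genes was 21.1% to 30.5%. Without both KO replicate 1 and WT replicate F1 it was 2, where that share was 39.4%. P2ry12 relative to the microglia markers, 0.94, was 0.36 without KO replicate 1 and WT replicate F1 and 0.63 to 1.22 leaving out 1 library. The sign of genotype fold changes turned with library totals, log2(TPM + 1) and log2(TPM + 0.1) for P2ry13 (−0.032, −0.146, −0.161), P2rx7 (−0.095, −0.106, −0.135) and Gpr34 (−0.15, −0.24, −0.271), and on the TPM scales for Entpd1 (−0.078, −0.085); medians of all genes were −0.17, −0.24 and −0.29. Without both libraries, P2ry6 was 0.249, P2rx7 −0.033 and Gpr34 −0.033, and in males P2ry6 was 0.218. Leaving out 1 library gave genotype fold changes of 0.04 to 0.271 for P2ry13, −0.313 to 0.218 for P2ry6, −0.09 to 0.195 for P2rx7 and −0.049 to 0.131 for Gpr34, and female minus male fold changes of −0.275 to 0.469 for P2ry6, −0.088 to 0.053 for P2rx4 (0.004 with no filter), −0.346 to 0.002 for P2rx7 and −0.27 to 0.063 for Gpr34. The cause was not tested.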

Other observations

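Transcription factors of microglia lay mostly above 0 in KO libraries (8 of 9 tested, against 49.4% of all genes, median 0.19), with 0 past the adjusted edgeR threshold. Sall1, a factor of microglia identity, had 51.0, 43.2 and 32.1 CPM in KO libraries, against 32.9, 32.0 and 29.8 CPM in WT libraries, with an overlap. Mef2c, which neurons of the cortex also use, had a log2 fold change of 0.52. Of the activated microglia genes, Cd68, a lysosomal protein of phagocytes, had 14.6, 13.9 and 11.6 CPM in KO libraries, against 8.48, 8.67 and 9.95 CPM in WT libraries (log2 fold change 0.56, edgeR adjusted p = 0.735). The median over 9 tested genes was 0.21, with 3 below 0, Clec7a (−0.43), Cd74 (−0.09) and Axl (−0.04); Cst7, too low to test, had all KO libraries below WT. Markers of monocytes and neutrophils summed to 46.6 CPM in WT replicate 1 and to between 2.29 and 7.08 CPM in the other 5 libraries.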
